A study of Homo sapiens with 8 samples.

Results

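Semaphorins, plexins, neuropilins, ephrins and EPH receptors are the guidance cues and receptors by which cells attract or repel one another, and 51 of the 18404 genes with a value on these arrays belong to them. Members were taken by a rule on gene symbols that uses no measured values, though earlier results of these data were known. They comprise 19 semaphorins, 9 plexins, 2 neuropilins, 8 ephrins and 13 EPH receptors. Expression was measured in HepG2, a human line from a liver tumour with many features of hepatocytes, on 8 single-channel arrays. Of these, 4 cultures labelled Senescent had received 0.5 mM hydrogen peroxide (H2O2) in medium for 60 minutes, and 4 cultures labelled Normal had received medium alone. All 8 were washed afterwards, and the labels give 5 days of further culture before the cells were examined for a senescent phenotype, without a separate time for taking RNA. HepG2 is a single tumour line, and both groups share its genotype. The series describes its replicates, 4 per condition, as biological.

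Semaphorins are secreted or membrane-bound proteins that bind plexins, and the secreted class 3 semaphorins mostly need a neuropilin as co-receptor. The plexin's intracellular part acts on small GTPases and so on integrins and actin. Neuropilins also bind vascular endothelial growth factors. Ephrins are membrane-anchored ligands of the EPH receptor tyrosine kinases: A-type ephrins hang on a lipid anchor and mostly bind EPHA receptors, B-type ephrins span the membrane and mostly bind EPHB receptors, and a bound pair can signal into both cells. Both systems are best known from axon guidance and blood vessels, and are also used by epithelial cells to set boundaries and contacts.

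Receptors of the semaphorin system rose in H2O2-treated cells: both neuropilins and 6 of 9 plexins were higher and none was lower. Among the ligands 5 of 19 semaphorins were higher and 1 was lower. The ephrin system was divided, with 3 of 5 A-type ephrins lower, 2 of 3 B-type ephrins higher, and 2 of 13 EPH receptors higher. In all, 17 members were higher and 4 lower, by limma at a Benjamini-Hochberg adjusted p under 0.05 over all genes. That is 41.2% of the members, beside a background of 34% of all genes called. By direction it is 33.3% higher and 7.84% lower among the members, beside 19.2% higher and 14.8% lower among all genes. The count of 4 lower was 2 to 7 with 1 array left out (7 without H2O2 replicate 3, 2 without H2O2 replicate 1, 2 or 4 or untreated replicate 2 or 4) and 8 with array weights, and of the 3 A-type ephrins EFNA5 was lost in 9 of 16 alternative settings. The median log2 difference was 0.03 over the members and -0.02 over all genes. The groups' arrays did not overlap for 21 members (41.2%), beside a background of 33.7% of all genes. All values below are log2 expression, all differences are log2 differences of H2O2-treated minus untreated cells with their standard error, levels are means ± SD with n = 4 arrays per group, and "called" means past that limma threshold.

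**Figure D1:**
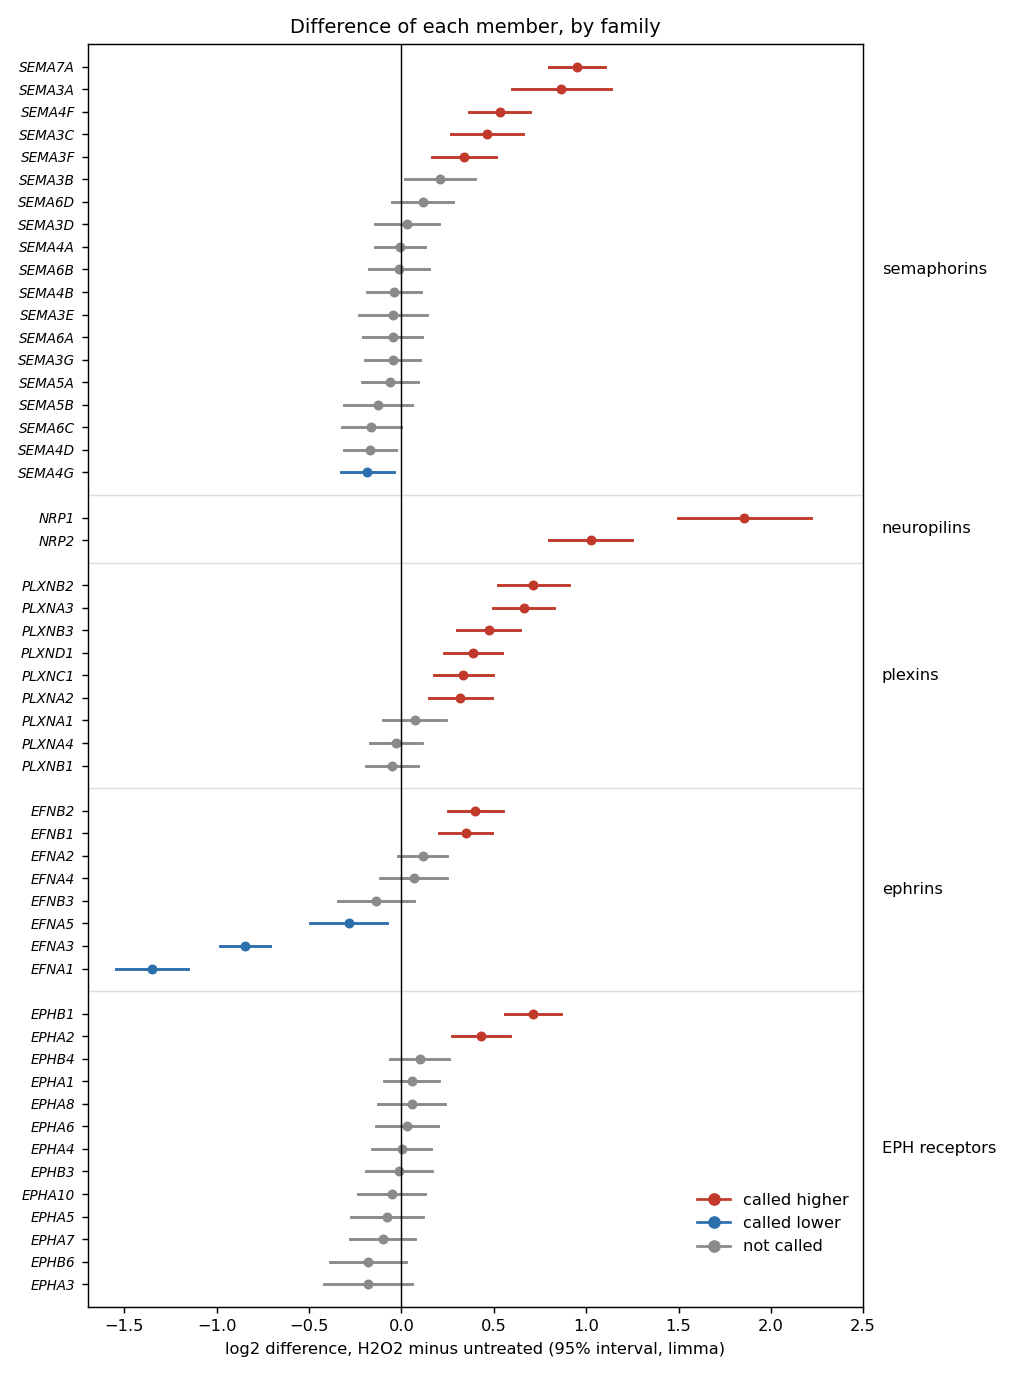
Log2 difference of each of the 51 members (horizontal axis, H2O2-treated minus untreated, points) with its 95% interval from limma (lines), grouped by family and sorted within it. The intervals of the 2 neuropilins and of the 6 plexins called lie wholly to the right of 0, whereas 11 of the 13 EPH receptors are not called and EFNA1 lies farthest to the left at -1.35.

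Values below the array median of 6.89 may not exceed the array background, and folds of such genes are less exactly known. Of the 51 members 22 lay below it in both groups, and 5 of these were called (22.7%, beside 12.9% of the 6836 genes equally dim). Of the other 29 members 16 were called (55.2%, beside 46.5% of 11568 genes). Of the hepatocyte markers 8 of 9 had a value, and all 8 lay above the array median on every array, with a mean over the 8 of 11.61 to 11.89 on treated arrays and 12.04 to 12.09 on untreated arrays. Of these 8 markers 5 were called lower, 1 higher and 2 not called (75% called, beside 34% of all genes). TF fell most (-0.90 ± 0.094), and TTR was the marker called higher (0.26 ± 0.084). Of other cell types that use these cues, all 7 measured neuronal markers averaged below the array median in both groups, whereas 2 of 6 endothelial markers averaged above it in each group. The mean of the 6 endothelial markers was 6.49 to 6.66 on treated and 6.27 to 6.39 on untreated arrays. CLDN5, the endothelial claudin, lay above the array median in both groups and not called (7.42 ± 0.18 in treated, 7.49 ± 0.049 in untreated cells), ESAM, an adhesion molecule, was higher (7.76 ± 0.097 in treated, 6.17 ± 0.17 in untreated cells) and CDH5, the endothelial cadherin, lower (6.67 in treated, 6.92 in untreated cells). The part of cell composition in the results was not tested, and in bulk RNA fewer cells of a kind and less RNA per cell cannot be told apart. Array medians ran from 6.85 to 6.93.

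Neuropilin 1 changed most of all members. NRP1, a co-receptor for class 3 semaphorins and for vascular endothelial growth factor, read 8.87, 8.98, 9.02 and 9.15 on the treated arrays, against 6.84, 6.69, 7.61 and 7.46 on the untreated arrays. The lowest treated array lay above the highest untreated one, and the untreated arrays spread the more widely, with replicates 3 and 4 above replicates 1 and 2. The mean was 9.01 ± 0.11 in treated and 7.15 ± 0.45 in untreated cells, which is 3.62-fold (log2 difference 1.86 ± 0.17, limma adjusted p = 1.29e-06). Over the 17 alternative settings the NRP1 difference stayed between 1.71 and 2.01.

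NRP2, which prefers SEMA3F and the lymphatic growth factor VEGFC, read 7.47, 7.40, 7.71 and 7.68 on the treated arrays, against 6.33, 6.42, 6.78 and 6.63 on the untreated arrays. Again the groups did not overlap, and the untreated values all lay below the array median. The 2.03-fold rise (1.02 ± 0.10, limma adjusted p = 4.06e-06) was also seen in a dimmer NRP2 probe set, at 7.18 in treated and 5.84 in untreated cells (1.34 ± 0.11). The NRP1 difference exceeded that of NRP2 by 0.83 on the log2 scale, with p = 0.0286 in an exact two-sided permutation test of 4 arrays against 4, the smallest p that design allows. Against the dimmer NRP2 probe set it exceeded it by 0.52, with p = 0.0571 in the same exact test, so whether the rises were unequal depends on the probe set. These tests and those of EFNA1 and EFNA3 against EFNA4 below were chosen after the values were seen. Adjusted over the 4, the exact permutation p of 0.0286 becomes 0.0381. That adjustment does not cover the choice of the pairs from all members. The growth factor receptors that neuropilins assist lay below the array median in both groups and were not called: KDR differed by 0.07 ± 0.098 (adjusted p = 0.617) and FLT1 by 0.15 ± 0.092 (adjusted p = 0.259).

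**Figure D2:**
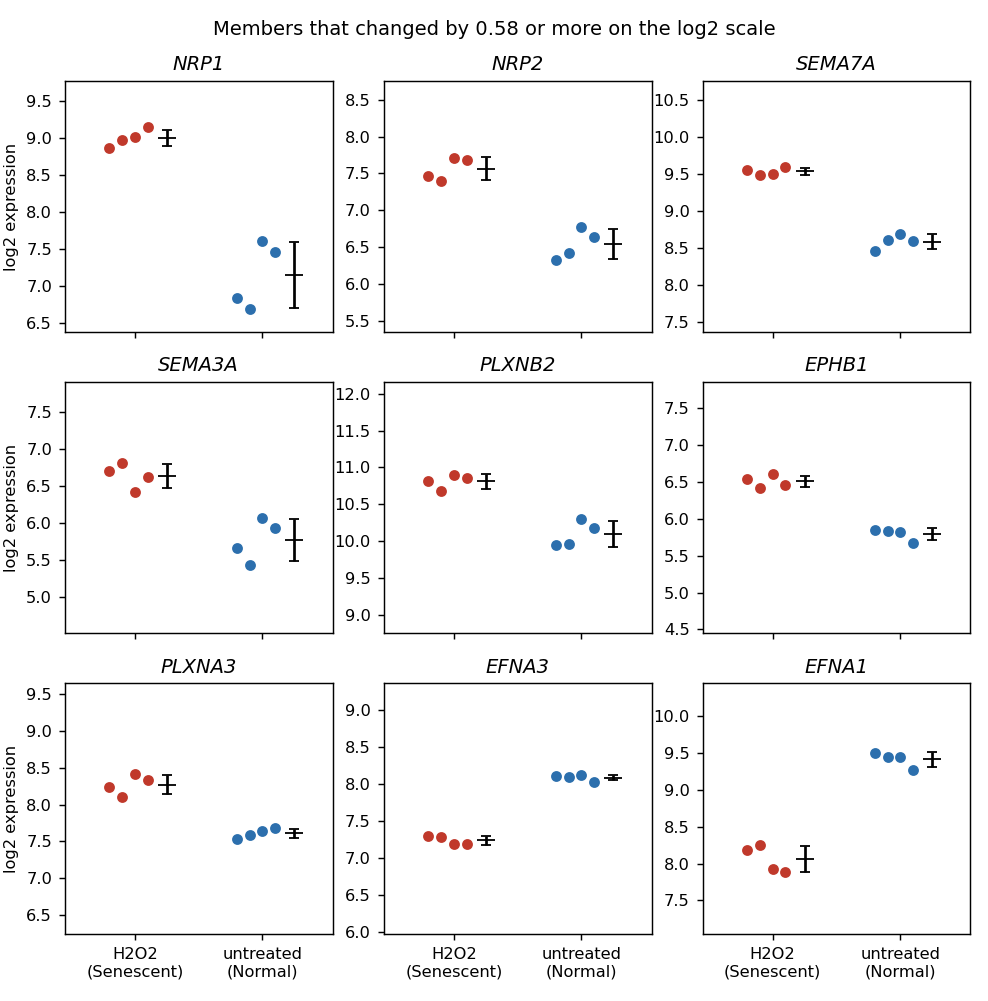
Log2 expression (vertical axes, each spanning the same number of log2 units) of the 9 members called with a difference of 0.58 or more in size, on every array: red points are the 4 H2O2-treated arrays, blue points the 4 untreated ones, in replicate order, and the black marks are the mean ± SD. No panel has overlapping groups. NRP1 shows the widest untreated spread (SD 0.45), and EFNA3 and EFNA1 are the 2 panels in which treated cells lie below untreated cells.

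Plexins are the signalling receptors. PLXNB2, which binds class 4 semaphorins and the secreted nuclease angiogenin, read 10.81, 10.68, 10.90 and 10.86 on the treated arrays, against 9.95, 9.96, 10.30 and 10.18 on the untreated arrays. The groups were apart by more than their spread, at a 1.64-fold difference (0.71 ± 0.088, limma adjusted p = 2.45e-05). PLXNA3, which with NRP2 forms a receptor for SEMA3F, read 8.23, 8.10, 8.42 and 8.33 on the treated arrays, against 7.53, 7.59, 7.64 and 7.68 on the untreated arrays, a 1.58-fold rise (0.66 ± 0.077, limma adjusted p = 1.40e-05).

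Smaller rises with groups that did not overlap were those of PLXNB3, a receptor for SEMA5A (0.47 ± 0.079), PLXND1, the receptor for SEMA3E that patterns blood vessels (0.39 ± 0.073), PLXNC1, the receptor for SEMA7A (0.33 ± 0.074), and PLXNA2, which binds class 6 semaphorins (0.32 ± 0.079). PLXNB1, the receptor for SEMA4D, was not called at 9.13 ± 0.045 in treated and 9.19 ± 0.073 in untreated cells (95% interval of the difference -0.19 to 0.09). PLXNA1 (0.07 ± 0.079) and PLXNA4 (-0.03 ± 0.065) were not called either. Over the 9 plexins the median difference was 0.33.

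Among the ligands SEMA7A changed most. SEMA7A, a lipid-anchored semaphorin that binds PLXNC1 and also beta-1 integrins, read 9.56, 9.49, 9.50 and 9.59 on the treated arrays, against 8.46, 8.60, 8.69 and 8.59 on the untreated arrays. The treated arrays agreed closely, at 9.53 ± 0.050, and all lay above the untreated arrays, at 8.58 ± 0.098, a 1.93-fold rise (0.95 ± 0.069, limma adjusted p = 1.86e-07). PLXNC1 was also higher, as given, and so was ITGB1, the beta-1 subunit of integrins, by 0.68 ± 0.075. The alpha subunits of these integrins were not examined here.

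SEMA3A, the secreted semaphorin that collapses growth cones through NRP1 and A-type plexins, read 6.71, 6.81, 6.43 and 6.62 on the treated arrays, against 5.66, 5.43, 6.07 and 5.94 on the untreated arrays. The groups did not overlap, but all 8 values lay below the array median, so the 1.82-fold rise (0.87 ± 0.12, limma adjusted p = 9.19e-05) rests on dim signals. SEMA4F, a transmembrane semaphorin, rose by 0.53 ± 0.076, SEMA3C, which signals through NRP1 and NRP2, by 0.46 ± 0.090 from dim values, and SEMA3F, the main ligand of NRP2, by 0.34 ± 0.081. SEMA3B, which lies near SEMA3F on chromosome 3 and is a known p53-induced gene, was not called, at 9.36 ± 0.093 in treated and 9.15 ± 0.17 in untreated cells (adjusted p = 0.0853). It passed with array weights, at 0.30, and without untreated replicate 3, at 0.27.

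SEMA4G, a class 4 transmembrane semaphorin, was the semaphorin called lower. It read 10.20, 10.15, 10.25 and 10.18 on the treated arrays, against 10.29, 10.33, 10.47 and 10.44 on the untreated arrays (-0.19 ± 0.067, limma adjusted p = 0.0452), and the call was lost in 10 of 17 alternative settings. The 13 semaphorins not called had differences from -0.17 to 0.21, and included both measured members of class 5 and all 4 of class 6. SEMA4D, the ligand of PLXNB1, was among them at -0.17 ± 0.066 (adjusted p = 0.0631). It passed as lower with array weights and without untreated replicate 3, while its other probe set differed by -0.01 ± 0.088.

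Of the class 3 genes that lie near one another on chromosome 7 in RefSeq, SEMA3A and SEMA3C were called higher and SEMA3E and SEMA3D were not called. CD36, next to SEMA3C among the protein-coding genes, was also called higher (0.54 ± 0.10), from dim values (6.14 ± 0.21 in treated, 5.60 ± 0.12 in untreated cells). HGF, CACNA2D1 and PCLO, between SEMA3C and SEMA3E, were not called. On the other side GRM3, next to SEMA3D, was not called (-0.16 ± 0.076), and ELAPOR2, the gene after it, was called higher (0.41 ± 0.12). SEMA3E and SEMA3D, on either side of SEMA3A, differed by -0.04 ± 0.085 and 0.03 ± 0.080. SEMA3E and SEMA3D were dim, at 4.55 ± 0.12 and 4.41 ± 0.091 in treated and 4.59 ± 0.14 and 4.38 ± 0.13 in untreated cells. At such levels a change could go unseen.

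EFNA1 fell most of all members. EFNA1, the ephrin first found as a gene induced by tumour necrosis factor in endothelial cells and a ligand of EPHA2, read 8.19, 8.25, 7.93 and 7.89 on the treated arrays, against 9.50, 9.45, 9.44 and 9.27 on the untreated arrays. The highest treated array lay well below the lowest untreated one. The mean was 8.07 ± 0.18 in treated and 9.42 ± 0.10 in untreated cells, 2.55-fold lower with treatment (-1.35 ± 0.091, limma adjusted p = 8.72e-08). EFNA3, another A-type ephrin, read 7.30, 7.28, 7.18 and 7.19 on the treated arrays, against 8.11, 8.09, 8.12 and 8.03 on the untreated arrays, and was 1.80-fold lower (-0.85 ± 0.063, limma adjusted p = 2.30e-07). EFNA3 varied little between replicates, with an SD of 0.060 in treated and 0.039 in untreated cells.

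EFNA1 and EFNA3 are neighbours on chromosome 1 in RefSeq, in the order EFNA4, EFNA3, EFNA1, and EFNA4 did not move with them. EFNA4 read 9.08 ± 0.16 in treated and 9.02 ± 0.069 in untreated cells (0.07 ± 0.084, adjusted p = 0.605, 95% interval -0.11 to 0.25). Relative to EFNA4 on the same array, EFNA1 was lower in treated than in untreated cells by a log2 difference of -1.42 and EFNA3 by -0.91, each at p = 0.0286 in the exact two-sided permutation test. The genes that flank the 3 ephrins were not called, though both were close to the threshold. ADAM15, a metalloprotease beside EFNA4, differed by 0.21 ± 0.082 (limma adjusted p = 0.0637). SLC50A1, a sugar transporter beside EFNA1, differed by -0.22 ± 0.081 (limma adjusted p = 0.0565). RefSeq also holds a read-through gene that joins EFNA4 and EFNA3, for which no value was used here, so the share of its transcripts in either value is unknown.

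The upstream sequences of these 3 ephrins are shown because the neighbours differed in response, and that of EPHA2 because it is the EFNA1 receptor that rose. Each is the stretch of 250 bases before the gene's start in RefSeq (build GRCh38.p14), 5′ to 3′ on the gene's strand, at chr1:155127626-155127875 (plus strand) for EFNA1, chr1:155078587-155078836 (plus) for EFNA3, chr1:155063490-155063739 (plus) for EFNA4 and chr1:16156070-16156319 (minus) for EPHA2. Capitals mark GC boxes (GGGCGG or its complement CCGCCC, overlapping matches included) and, in EPHA2, the TEAD motif as well.
EFNA1: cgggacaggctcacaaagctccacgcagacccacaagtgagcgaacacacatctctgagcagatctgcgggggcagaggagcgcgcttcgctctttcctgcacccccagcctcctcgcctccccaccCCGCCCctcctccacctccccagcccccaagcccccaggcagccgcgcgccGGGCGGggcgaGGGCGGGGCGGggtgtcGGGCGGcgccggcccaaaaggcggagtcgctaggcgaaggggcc
EFNA3: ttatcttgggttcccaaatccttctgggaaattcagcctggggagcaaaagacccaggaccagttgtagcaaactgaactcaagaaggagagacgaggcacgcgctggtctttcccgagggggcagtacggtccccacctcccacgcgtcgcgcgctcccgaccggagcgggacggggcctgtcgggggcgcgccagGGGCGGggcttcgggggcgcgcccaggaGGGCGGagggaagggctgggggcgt
EFNA4: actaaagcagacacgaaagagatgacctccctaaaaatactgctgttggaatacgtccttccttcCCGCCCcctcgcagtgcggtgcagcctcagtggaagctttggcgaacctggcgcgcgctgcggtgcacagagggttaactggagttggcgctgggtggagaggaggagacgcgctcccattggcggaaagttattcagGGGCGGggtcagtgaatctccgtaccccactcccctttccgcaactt
EPHA2: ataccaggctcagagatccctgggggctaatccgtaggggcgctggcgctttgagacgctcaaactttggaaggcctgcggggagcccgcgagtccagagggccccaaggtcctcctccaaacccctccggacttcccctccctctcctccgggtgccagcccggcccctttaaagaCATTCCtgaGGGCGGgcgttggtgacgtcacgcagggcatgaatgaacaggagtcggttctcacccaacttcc

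There were 5 GC boxes upstream of EFNA1, 2 each upstream of EFNA3 and EFNA4 and 1 upstream of EPHA2, a motif searched for after the values were seen. The share of G and C was 73.2% upstream of EFNA1, 67.6% of EFNA3, 58.4% of EFNA4 and 63.2% of EPHA2. RefSeq upstream windows were matched for 45 members, with 71 windows in all, and for 19 of the 21 called members, all but NRP1 and SEMA3A. GC boxes were in the windows of all 15 matched members called higher, of all 4 called lower and of 22 of the 26 not called, beside 46.2% of all 27305 genes with a window. Counted by window they were in 71.8% of member windows, beside 42.6% of all 35116 windows. These backgrounds, here and for the motifs below, hold every gene with a window and were not limited to the genes tested on the arrays. AP-1 (TGANTCA) was found in 1 member window (1.41%), upstream of PLXNC1, beside 6.57% of all windows. TEAD (GGAATG) was found in 9.86% of member windows, upstream of EPHA2, PLXNB3 and SEMA3F among the called members, beside 11.9%. The hypoxia element (ACGTG) was found in 19.7% of member windows, beside 18.5%, and among called members only upstream of SEMA7A. The p53 half-site, searched for with its degenerate consensus, was in 2.82% of member windows, upstream of SEMA3F among the called members, beside 5.57% of all windows. Both strands were searched, and a match is a run of letters, not a shown site.

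The remaining ephrins went in different directions. EFNB2, the B-type ephrin of arterial vessels and the main ligand of EPHB4, was higher by 0.40 ± 0.069 from dim values (5.56 ± 0.073 in treated, 5.16 ± 0.079 in untreated cells). EFNB1, the X-linked ligand of EPHB receptors, was higher by 0.35 ± 0.066. EFNA5 read 5.71, 5.58, 6.01 and 5.77 on the treated arrays, against 6.12, 6.13, 5.86 and 6.11 on the untreated arrays. Its groups overlapped through untreated replicate 3, and the call (-0.29 ± 0.096, limma adjusted p = 0.0327) was lost in 9 of 16 alternative settings. EFNA2 (0.11 ± 0.061) and EFNB3 (-0.14 ± 0.096) were not called.

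EPH receptors mostly did not pass the test. EPHB1, a receptor for B-type ephrins, read 6.54, 6.42, 6.60 and 6.46 on the treated arrays, against 5.84, 5.84, 5.82 and 5.67 on the untreated arrays. The groups did not overlap and all 8 values were below the array median, so the 1.64-fold rise (0.71 ± 0.070, limma adjusted p = 2.95e-06) is known only on dim signals. EPHA2, an epithelial receptor for EFNA1 and a known p53-induced gene, read 9.56, 9.51, 9.58 and 9.50 on the treated arrays, against 9.09, 9.05, 9.28 and 9.01 on the untreated arrays. It was 1.35-fold higher (0.43 ± 0.073, limma adjusted p = 0.000347), while its ligand EFNA1 was lower.

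The other 11 EPH receptors had differences from -0.18 to 0.10. EPHB4, the receptor of EFNB2, was bright and not called at 9.35 ± 0.089 in treated and 9.25 ± 0.11 in untreated cells (95% interval of the difference -0.06 to 0.26). EPHA1, a receptor for A-type ephrins, was not called at 0.06 ± 0.069, and EPHB6, whose kinase is inactive, at -0.18 ± 0.095. Of the 13 receptors 9 lay below the array median in both groups, among them EPHA3, EPHA5, EPHA6 and EPHA7, which are known from the nervous system.

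**Figure D3:**
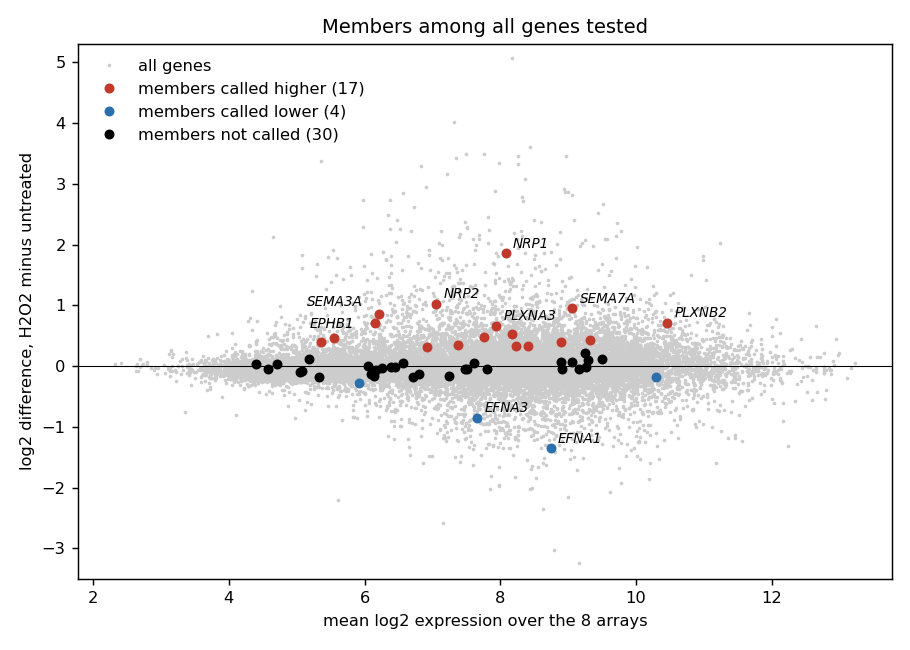
Log2 difference (vertical axis, H2O2-treated minus untreated) against the mean log2 expression over the 8 arrays (horizontal axis) for all 18404 genes (grey) and the 51 members (red called higher, blue called lower, black not called). The members called lie within the cloud of all genes, of which 34% were called, and the 9 with a difference of 0.58 or more in size are named.

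Differences of 0.58 or more in size were called for 9 members, beside a background of 9.37% of all genes. Among the 17 members called higher, untreated replicate 3 was the highest of the 4 untreated arrays for 11 (64.7%), beside 43.3% of all 3527 genes called higher. Without that array all 17 were still called and SEMA3B was added. H2O2 replicate 2 was the lowest treated array for 10 of the 17 (58.8%), beside 25.0% of those genes, and without it all 17 were still called. H2O2 replicate 3 was the highest treated array for 47.1%, beside 21.4% of those genes, and untreated replicate 1 the lowest untreated array for 47.1%, beside 23.8%. Whether the members vary together was not tested.

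Of 32 measured partners and effectors of plexins and neuropilins 14 were higher and 3 lower. That is 53.1% called, beside 34% of all genes (19.2% higher and 14.8% lower). The median difference was 0.16, beside -0.02 over all genes. Of the 32, 10 lay below the array median in both groups. Among all genes above it in 1 group or both, 46.5% were called. The gene lists here and below were chosen with earlier results of these data known, so their shares are descriptions and not tests. The largest rises were those of MICAL2, an actin-oxidising enzyme of the plexin pathway (a log2 difference of 1.77 ± 0.076 SE, 3.42-fold), L1CAM, an adhesion molecule that joins NRP1 in the SEMA3A receptor (8.01 ± 0.14 in treated, 6.26 ± 0.14 in untreated cells, 3.35-fold), and RRAS, a small GTPase that plexins switch off (10.64 ± 0.14 in treated, 9.34 ± 0.16 in untreated cells, 2.47-fold). The falls were DPYSL2, the collapsin response mediator CRMP2 (-0.46 ± 0.080), ERBB2, a receptor kinase that can pair with B-type plexins (-0.38 ± 0.075), and SH3BP1, a GTPase regulator that takes part in SEMA3E responses (-0.24 ± 0.066).

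Eph and ephrin effectors were called in 12 of 31 cases, 9 higher and 3 lower (38.7%, beside 34% of all genes). Only 3 of the 31 lay below the array median in both groups. Among all genes above it in 1 group or both, 46.5% were called. GRB10, an adaptor that binds EPHB1 and the insulin receptor, was 2.64-fold higher (8.82 ± 0.13 in treated, 7.43 ± 0.29 in untreated cells). The GTPase RAC1 (0.85 ± 0.15) and SDCBP, the PDZ protein syntenin (0.49 ± 0.066), rose, while the adaptor CRKL (-0.43 ± 0.065), the focal adhesion kinase PTK2 (-0.29 ± 0.072) and the SRC family kinase YES1 (-0.26 ± 0.085) fell. ADAM10, the protease that cleaves A-type ephrins from the cell surface, was not called (0.10 ± 0.071).

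Other guidance cues and receptors, the netrin, slit, repulsive guidance molecule and FLRT families, were called in 2 of 26 cases (7.69%, beside 34% of all genes). Of the 26, 13 lay below the array median in both groups, where 12.9% of all genes were called. The 2 called, FLRT3 and NTN4, were not among these 13. Among all genes above it in 1 group or both, 46.5% were called. FLRT3, an adhesion molecule that binds UNC5 receptors, was 2.09-fold higher (8.02 ± 0.10 in treated, 6.96 ± 0.43 in untreated cells), and NTN4, a netrin found in basement membranes, was 1.68-fold higher (8.86 ± 0.055 in treated, 8.11 ± 0.096 in untreated cells). The other 24, all 4 UNC5 receptors and all 3 slits included, had differences from -0.21 to 0.22.

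**Figure D4:**
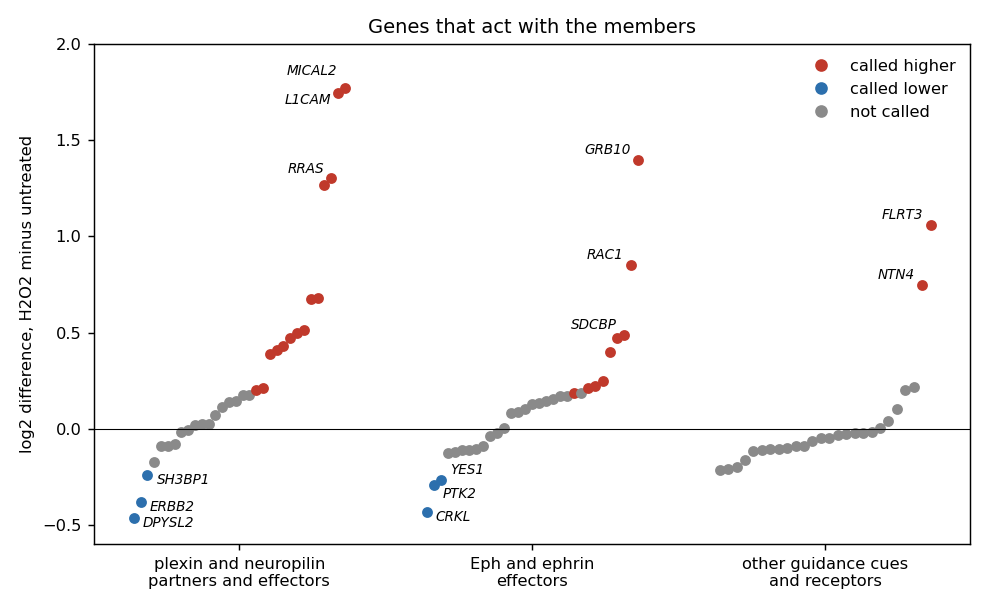
Log2 difference (vertical axis, H2O2-treated minus untreated) of each measured gene in 3 lists of genes that act with the members or beside them, sorted within each list from lowest to highest. Red points are called higher, blue points called lower and grey points not called, and per list at most 3 called genes of each colour, those with the largest differences, are named. The plexin and neuropilin list holds 14 red points of 32, the list of other cues 2 of 26. The lists were chosen with earlier results of these data known.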

How the data were processed

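The deposited table holds log2 expression values of 32321 probe sets on 8 arrays, known as log2 from the values; how the authors summarised the probes, corrected background and normalised the arrays was not given in the sources used here. Of the tools, limma is named by the submitters' processing notes without a role or version. Per the labels' protocols, column-purified total RNA was turned into biotin-labelled sense cDNA. The platform annotation gives 19158 probe sets 1 symbol, 1388 several and 11775 none, and RefSeq (GRCh38.p14) changed 0 symbols. For the 637 genes with several probe sets, 3 members among them, the one with the highest mean log2 was used. Of the 53 symbols that RefSeq holds under the rule, 2 were not analysed here. These were EPHB2 and SEMA4C, which had no single-symbol probe set in the annotation used.

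limma (version 3.58.1, R 4.3.3) fitted 1 mean per group to 18404 genes, with empirical Bayes moderation, Benjamini-Hochberg adjustment and a call at adjusted p under 0.05; adjusted p-values of members are adjusted over all genes. The fit was tested on simulated data. Sequence searches, exact permutation tests and figures used Python 3.11.15, pandas 2.3.3, numpy 2.4.6 and matplotlib 3.10.9. The exact tests and their adjustment were run with scipy, whose version was not recorded. No pair of arrays shared over 0.00619% identical values.

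Members, gene lists and tests were chosen with earlier results of these data known. All members were described, with values on every array for called members whose difference was 0.58 or more, and other values by range; up to 3 called rises and falls were named per list. Values on every array are also given for EFNA5, SEMA4G and EPHA2, chosen after their values were seen. Alternatives covered normalization, dim genes, probe sets, variance model, array weights, replicate block, threshold and leaving out each array. The number of arrays limits the precision.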

Additional observations from a re-analysis of the deposited data

Results flagged for a closer look

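Of the 102 sets of 4 arrays (51 members in each group), 7 held an array whose gap to its nearest neighbour, as a share of the set's range, passed Dixon's 95% critical value, a criterion that chance meets in about 1 of 20 sets. In H2O2-treated cells these were EFNB2 in replicate 1 (5.67, above 5.53, 5.52 and 5.51), SEMA3C in replicate 1 (6.00, next 5.72), EPHA8 in replicate 3 (6.83, next 6.53) and EPHA1 in replicate 4 (7.49, below 7.68). In untreated cells they were EFNA5 in replicate 3 (5.86, below 6.11), EPHA6 in replicate 3 (4.55, below 4.74) and EPHB1 in replicate 4 (5.67, below 5.82). Without untreated replicate 3 the EFNA5 difference was -0.35, against -0.29 with it.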

How the results depend on the processing

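All 17 members called higher kept their direction and call in every one of the 17 alternative settings that tested them; leaving out dim genes kept 29 of the 51 members, and with them 13 calls higher and 3 lower. EFNA1 (-1.41 to -1.29) and EFNA3 (-0.87 to -0.83) also kept theirs. The count of members called lower, 4, depended on the setting: it was 2 with all probe sets tested, 2 with the replicate number as a block, 2 at adjusted p under 0.01, 8 with array weights, and 2 to 7 with 1 array left out, 7 without H2O2 replicate 3 and 2 without H2O2 replicate 1, 2 or 4 or untreated replicate 2 or 4. The lower calls that came or went were small differences: EFNA5 and SEMA4G were lost in 9 of 16 and 10 of 17 settings, EPHB6, SEMA5B and SEMA6C were gained with array weights and without H2O2 replicate 3, and SEMA4D with array weights and without untreated replicate 3. SEMA3B was gained as higher in the same settings as SEMA4D. The NRP1 difference less that of NRP2, 0.83, was 0.52 with the dimmer NRP2 probe set and no longer passed, an alternative chosen after seeing the data. With array weights 4111 of all genes were called lower, beside 2732. The cause was not tested. No call reversed. Same-numbered arrays correlated in their deviations at -0.068, 0.060, -0.247 and 0.094, so the numbers were not taken to pair the cultures, and the block changed no other member's call. Members below the array median have folds of limited precision.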

Other observations

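Markers of further cell types were measured beside the members. Of 5 leukocyte markers CD68, a lysosomal glycoprotein, was 1.74-fold higher in treated cells (10.36 ± 0.087 against 9.56 ± 0.082 in untreated cells) and CD14 was also called higher, while PTPRC, CD3E and CSF1R lay below the array median in both groups and were not called. Of 6 fibroblast and stellate markers PDGFRB, a growth factor receptor, was 2.23-fold lower in treated cells (6.97 ± 0.082 against 8.13 ± 0.18 in untreated cells) and COL1A1 was higher by 0.41 ± 0.076, and the other 4, DCN and LUM included, were not called. Of 7 neuronal markers SNAP25 and SYP were called lower and the other 5 were not called, all with group means below the array median, although SYP lay above it on untreated replicates 1 and 4.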
